A study of Mus musculus with 39 samples.

Results

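The 9 mouse genes described across the 39 libraries of the series are Pygm, Cdo1, Lgals3, Gdf9, Atp6v1e2, Colec11, Ly6g6c, Tmem236 and Vpreb3. They were chosen by symbol because their levels were lower than in the non-targeting (NT) libraries under 7 crRNAs in wild-type (WT) cells, and all 9 were found among the 25239 genes of the WT table and in the table of the tdTomato line. The values that chose them, 21 crRNA libraries against NT replicates 1, 2 and 6, are therefore given as a description with no test. Tests are read only for Rbfox3 crRNA 5 with its own NT libraries and for the tdTomato line, whose libraries had no part in the choice. The spread behind the tests in WT cells was estimated over all 30 WT libraries, those that chose the genes included.

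All libraries came from N2a cells, a mouse neuroblastoma line, collected 48 h after transfection with plasmids for RfxCas13d, an RNA-guided ribonuclease, and a crRNA. WT N2a cells received NT crRNA (6 libraries) or, with 3 libraries each, Sik3 crRNA 1 or 8, Map2 crRNA 1 or 3, Mapt crRNA 4 or 6, or Rbfox3 crRNA 3 or 5. N2a cells stably expressing tdTomato received NT crRNA, tdTomato crRNA 4 or tdTomato crRNA 7, with 3 libraries each. Library names place NT replicates 1, 2 and 6 in a set with 7 crRNAs (the WT set), and NT replicates 3, 4 and 5 in a set with Rbfox3 crRNA 5 (the N set). Every group, NT included, carried RfxCas13d, so the NT libraries are no untransfected cells. The sources used here do not say whether replicates were separate cultures, and p-values then measure only the spread between these libraries.

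Values are FPKM, fragment counts scaled to transcript length and library size. Fold changes are differences of log2(FPKM + 0.5), which understate the change of low genes, and adjusted p-values are from limma with Benjamini-Hochberg adjustment over all genes tested (11553 in WT cells, 11852 in the tdTomato line). Genes are called, and said to rise or fall, below an adjusted p of 0.05.

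The genes have no pathway in common. Pygm encodes the muscle form of glycogen phosphorylase, which releases glucose units from glycogen, and Cdo1 encodes cysteine dioxygenase, which opens the route from cysteine to taurine. Atp6v1e2 encodes a testis form of subunit E of the vacuolar proton pump, and Gdf9 a growth factor of the TGF-beta family that oocytes secrete. Lgals3 (galectin-3) and Colec11 (a collectin of the lectin pathway of complement) are sugar-binding proteins, Ly6g6c belongs to the Ly6 family of lipid-anchored surface proteins, and Vpreb3 is a partner of the pre-B-cell receptor. Tmem236 is a transmembrane protein. The working name of the list was non-immune genes, which does not hold for at least Colec11 and Vpreb3. Most of these are known for tissues other than the nervous system, so N2a cells are not the setting in which their functions were described.

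RfxCas13d finds RNA through the spacer of its crRNA. The spacers of the NT crRNA, of both Map2 crRNAs, under one of which most of the listed genes had their lowest group mean, and of the Rbfox3 crRNAs, one in each set of WT libraries, are shown 5′ to 3′, as the study listed them, because the crRNA is what the labels vary between the treated groups of a set.
NT crRNA: tcaccagaagcgtaccatactc
Map2 crRNA 1: actctcaattttcacacgtcca
Map2 crRNA 3: gagcattgtcaagtgagccaac
Rbfox3 crRNA 3: gcctccataaatctcagcacca
Rbfox3 crRNA 5: aaatccatcctgatacacgacc
The Map2 spacers matched Map2 exactly at chr1:66438258-66438279 (crRNA 1) and chr1:66438316-66438337 (crRNA 3, GRCm38, coding exon, plus strand), and Rbfox3 crRNA 5 matched Rbfox3 at chr11:118496369-118496390 (coding exon, minus strand). No listed gene matched a searched spacer exactly. The search allowed no gaps and left out the tdTomato spacers. In the longest annotated transcript of each gene, the best site for any of the 8 targeting spacers of WT cells had 6 mismatches in 22 nt. This was Tmem236 for Sik3 crRNA 1, where 2.77% of 11344 tested genes with a transcript matched as well or better, and Vpreb3 for Mapt crRNA 6, where 3.91% did. For the NT spacer the best site had 8 mismatches (Atp6v1e2), which 34.0% of the tested genes equalled or bettered. For Map2 crRNA 1 and Rbfox3 crRNA 5 the best sites among the 9 genes had 8 mismatches, which 43.3% and 37.1% of the tested genes equalled or bettered.

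The labels were checked on the targets. In NT libraries of the WT set Sik3 lay between 7.37 and 9.04 FPKM, and under its crRNAs between 0.940 and 2.37 FPKM. Map2 lay between 8.15 and 9.06 FPKM against 0.896 to 2.20 FPKM, Mapt between 25.0 and 26.6 against 5.62 to 13.4 FPKM, and tdTomato between 846 and 1071 against 120.0 to 163 FPKM. Rbfox3 was at most 0.136 FPKM in any library of WT cells, so its knockdown could not be checked. Recovered totals ran from 10405722 to 16874763 reads in WT libraries and from 2199738 to 4300019 in the tdTomato line. The listed genes are low: they held 1 to 492 reads per library, and 1 to 107 in the tdTomato line, where a single read was worth up to 0.727 FPKM.

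Of the metabolic enzymes, Pygm stood at 7.33, 7.99 and 7.59 FPKM in the NT libraries of the WT set. In the 21 crRNA libraries it ranged from 0.888 to 2.49 FPKM with a median of 1.59, so that every crRNA library lay far below every NT library. The mean under crRNAs was 21.5% of the NT mean. Cdo1 stood at 3.99, 3.56 and 3.29 FPKM under NT crRNA. Across the crRNA libraries it ran from 0.557 to 1.87 FPKM with a median of 0.936, or 28.4% of NT by means. The groups did not overlap for either gene.

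The pump subunit gene Atp6v1e2 had NT values of 3.09, 2.97 and 3.31 FPKM, close to each other. The crRNA libraries held 0.119 to 1.30 FPKM with a median of 0.624, which corresponds to 2 to 18 reads. Part of its exons (383 bp) is shared with a long noncoding RNA on the opposite strand that the table does not list, and the strand setting of the counting is not given in the sources used here, so reads of that RNA could not be told apart.

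Sugar-binding proteins and the growth factor followed. Lgals3 stood at 4.16, 2.69 and 3.75 FPKM in the NT libraries and at 0.200 to 1.14 FPKM (median 0.525) under crRNAs, 16.3% of NT by means. This was the lowest share of the 9 genes. Colec11 had NT values of 5.97, 5.66 and 5.00 FPKM, and under crRNAs it ranged from 0.575 to 2.77 FPKM with a median of 1.56. For Gdf9, NT libraries held 3.56, 2.32 and 2.96 FPKM and the crRNA libraries 0.506 to 1.56 FPKM with a median of 0.885. The highest Gdf9 value under a crRNA, 1.56 FPKM in Rbfox3 crRNA 3 replicate 2, remained under the lowest NT value of 2.32 FPKM.

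Of the surface and membrane protein genes, Ly6g6c stood at 1.69, 3.32 and 1.69 FPKM in NT libraries, where replicate 2 was the high one. Under crRNAs it ranged from 0.0617 to 0.844 FPKM (median 0.408), that is from 1 to 12 reads per library. Tmem236 was the steadiest under NT crRNA, with 2.72, 2.68 and 2.77 FPKM, against 0.275 to 0.7999 FPKM (median 0.595) under crRNAs. Vpreb3 came closest to an overlap: NT libraries held 5.98, 5.41 and 9.33 FPKM, and the highest crRNA library, Map2 crRNA 3 replicate 3, held 4.97 FPKM. Its crRNA median was 2.28 FPKM and its mean 31.3% of NT, the highest share of the 9.

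All 9 genes were thus lower in each of 21 libraries than in each of 3, which 7.64% of all genes tested also were. The rule chose the genes on this contrast, so nothing is read from that count. Their median log2 fold change was −1.58, beside a median of 0.03 over all genes tested. Means under crRNAs were 16.3% to 31.3% of NT. In bulk RNA, fewer cells with a transcript and less of it per cell cannot be told apart.

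**Figure D1:**
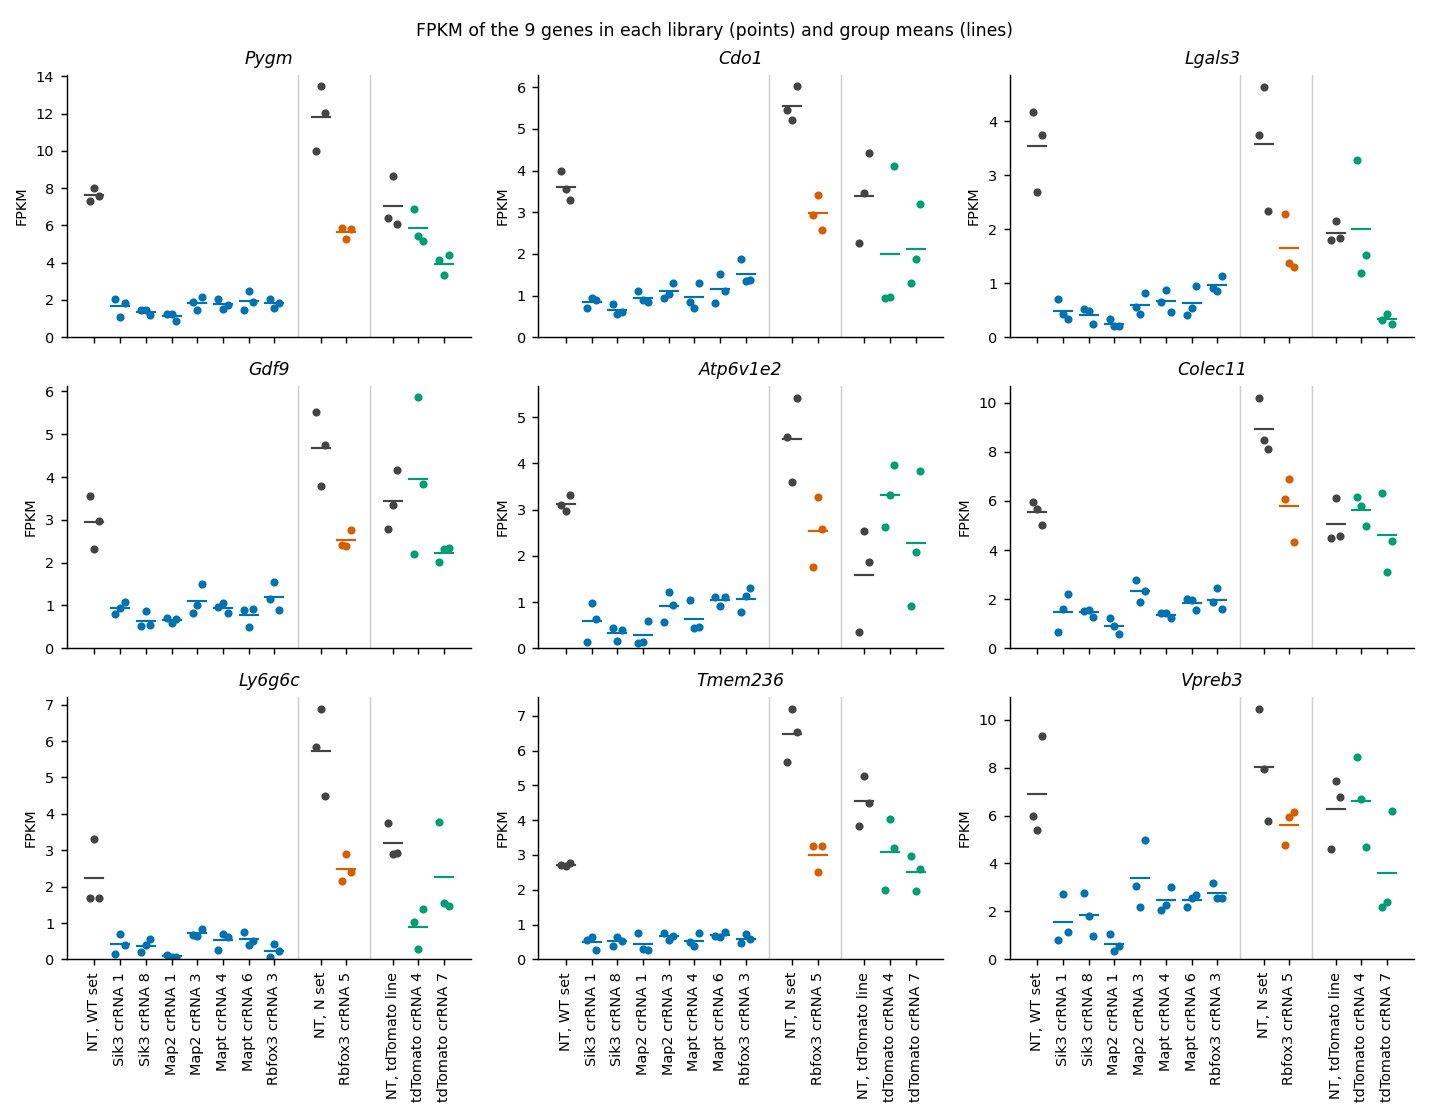
FPKM (vertical axis, from 0, linear) of each of the 9 genes in all 39 libraries, as points, with lines for group means of 3 libraries; grey is NT crRNA, blue the 7 crRNAs of the WT set, orange Rbfox3 crRNA 5 and green the tdTomato crRNAs, and the grey verticals separate the WT set, the N set and the tdTomato line. Blue points sit below all NT points of the WT set in every panel, and the NT points of the N set are the highest group for Pygm (9.97 to 13.5 FPKM) and Tmem236 (5.67 to 7.20 FPKM).

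The other NT set of the same cells held most of these genes at higher levels still. Against NT libraries of the WT set, the 3 NT libraries of the N set had means 1.01 (Lgals3) to 2.57 (Ly6g6c) times as high, with a median of 1.55 over the 9 genes. Tmem236 stood at 5.67, 7.20 and 6.52 FPKM, and Ly6g6c at 5.84, 6.88 and 4.50 FPKM, all above the WT-set libraries. For 7 of the 9 genes the 3 libraries of the N set lay above all 3 of the WT set, as they did for 29.2% of all genes tested. Lgals3 (3.75, 4.64 and 2.33 FPKM) and Vpreb3 (10.4, 7.92 and 5.76 FPKM) overlapped between the sets. The NT libraries of the WT set took part in the choice of the genes, so this is a description. All N-set libraries carry the name prefix LDL, as does NT replicate 6 of the WT set alone among its NT libraries. The part of the prefix in the difference between the sets was not tested, and what else differed between them is not given in the sources used here.

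Libraries that had no part in the choice were the 3 of Rbfox3 crRNA 5 and the 3 NT libraries of the N set. Here 8 of the 9 genes fell, where 13.1% of all genes tested fell, and the ninth, Vpreb3, had a log2 fold change of −0.45 ± 0.32 (SE, limma adjusted p = 0.318). Of the 8, Atp6v1e2 and Colec11 passed narrowly and lost their calls under several alternatives given below. In 8 genes all 3 crRNA libraries lay below all 3 NT libraries, as in 18.5% of all genes. The median log2 fold change was −0.81 for the 9 genes and 0.00 for all genes.

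Ly6g6c fell the most. Its NT libraries held 5.84, 6.88 and 4.50 FPKM and its Rbfox3 crRNA 5 libraries 2.15, 2.90 and 2.40 FPKM, a log2 fold change of −1.05 ± 0.25 (adjusted p = 0.00285). Pygm went from 9.97, 13.5 and 12.05 FPKM to 5.84, 5.29 and 5.83 FPKM (−0.99 ± 0.17, adjusted p = 0.000117). The Pygm groups did not overlap, and the NT libraries (SD 1.76 FPKM) were more spread than the crRNA libraries (SD 0.311 FPKM). Tmem236 went from 5.67, 7.20 and 6.52 FPKM to 3.26, 2.51 and 3.26 FPKM (−0.99 ± 0.18, adjusted p = 0.000254).

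Lgals3 changed from 3.75, 4.64 and 2.33 FPKM to 2.28, 1.38 and 1.30 FPKM, where the highest crRNA library came close to the lowest NT library (−0.91 ± 0.23, adjusted p = 0.00588). Cdo1 changed from 5.45, 5.21 and 6.03 FPKM to 2.93, 3.42 and 2.58 FPKM (−0.81 ± 0.16, adjusted p = 0.000703). For the oocyte factor gene Gdf9, NT libraries held 5.52, 3.79 and 4.75 FPKM and crRNA libraries 2.42, 2.39 and 2.77 FPKM (−0.77 ± 0.18, adjusted p = 0.00332). None of these 3 genes overlapped between the groups.

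Atp6v1e2 and Colec11 passed the threshold narrowly. Atp6v1e2 held 4.58, 3.60 and 5.42 FPKM under NT crRNA and 1.75, 3.27 and 2.58 FPKM under Rbfox3 crRNA 5 (−0.74 ± 0.27, adjusted p = 0.0449), and Colec11 10.2, 8.50 and 8.10 FPKM against 6.10, 6.91 and 4.33 FPKM (−0.60 ± 0.22, adjusted p = 0.0485). Leaving out single libraries moved their adjusted p up to 0.203 for Atp6v1e2 (without Rbfox3 crRNA 5 replicate 1) and 0.230 for Colec11 (without Rbfox3 crRNA 5 replicate 3), with the direction kept. Atp6v1e2 also lost its call without NT replicate 3 (0.0926), NT replicate 5 (0.157) or Rbfox3 crRNA 5 replicate 3 (0.0811), and Colec11 without NT replicate 3 (0.150), replicate 4 (0.0748), replicate 5 (0.0639) or Rbfox3 crRNA 5 replicate 1 (0.0738). With a pseudocount of 0.1, with no filter or with no prefix term neither gene was called (adjusted p = 0.176, 0.0761 and 0.0512 for Atp6v1e2, 0.102, 0.0877 and 0.0512 for Colec11), nor was Colec11 without the trend (0.0537). With a term for the replicate number neither was called (limma adjusted p = 0.0559 for Atp6v1e2 and 0.0541 for Colec11). Vpreb3 had 10.4, 7.92 and 5.76 FPKM in NT libraries and 4.77, 5.94 and 6.15 FPKM in crRNA libraries, which overlap.

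Under Rbfox3 crRNA 5 the means were 43.3% (Ly6g6c) to 69.9% (Vpreb3) of the NT mean of the N set. Set beside the NT libraries of the WT set, which were not its controls, the same libraries stood between 46.8% (Lgals3) and 111% (Ly6g6c), with a median of 82.4%. By means, the levels under Rbfox3 crRNA 5 lay above those under the 7 crRNAs of the WT set for all 9 genes, from 5.65 FPKM for Pygm against 1.64 to 2.48 FPKM for Ly6g6c against 0.416. The 7 crRNAs chose the genes as low, so nothing is read from that order. Those groups belong to different sets, and no test between them was made.

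**Figure D2:**
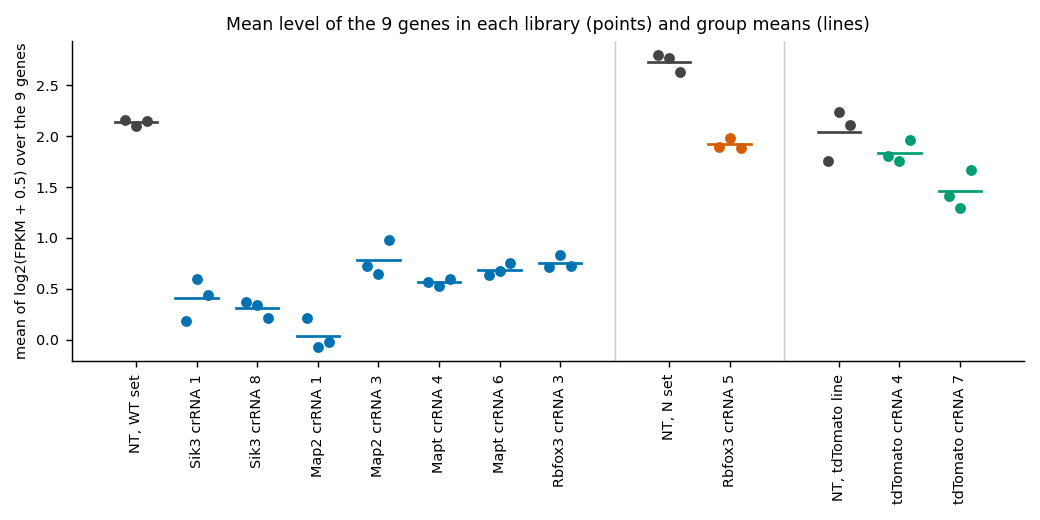
Mean of log2(FPKM + 0.5) over the 9 genes (vertical axis) in each of the 39 libraries, as points, with lines for group means; colours and separators are as in the plot of single genes. The NT libraries of the WT set lie at 2.10 to 2.16 and those of the N set at 2.63 to 2.79, Rbfox3 crRNA 5 at 1.88 to 1.98, and the 7 crRNAs of the WT set at −0.07 to 0.98.

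In the tdTomato line, sequenced to lower depth, fewer of the genes were called, and no test compared the line with WT cells. Under tdTomato crRNA 7, 2 of the 9 genes fell, where 11.3% of all genes tested fell, and 8 of the 9 had a negative log2 fold change. Under tdTomato crRNA 4, 1 gene fell, where 4.28% of all genes fell, and 5 had a negative value. The median over the 9 genes was −0.59 under crRNA 7 beside −0.13 over all genes, and −0.05 under crRNA 4 beside −0.06. These medians over all genes move with the scaling of the table, to −0.27 and −0.19 with equal library totals and to −0.01 for both crRNAs with median-ratio scaling.

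Lgals3 was the gene most affected by crRNA 7. NT libraries of the line held 1.79, 2.15 and 1.84 FPKM and crRNA 7 libraries 0.323, 0.424 and 0.2497 FPKM, which are 1, 2 and 1 reads against 7, 13 and 11 (−1.55 ± 0.34, adjusted p = 0.0155). Under crRNA 4 it held 3.28, 1.19 and 1.51 FPKM, which spans the NT values (−0.05 ± 0.34, adjusted p = 0.948). Its crRNA 7 call was lost without NT replicate 2 (adjusted p = 0.0647), NT replicate 3 (0.0518) or crRNA 7 replicate 1 (0.0619). It was also lost with a filter at a mean of 5 FPKM or with no prefix term (limma adjusted p = 0.0505 and 0.0503).

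Pygm fell under crRNA 7, from 6.40, 8.67 and 6.05 FPKM to 4.12, 3.33 and 4.40 FPKM (−0.75 ± 0.19, adjusted p = 0.0239), with no overlap. The call was lost without NT replicate 2 (adjusted p = 0.0929), crRNA 7 replicate 1 (0.0737) or crRNA 7 replicate 2 (0.0713). It was also lost with no filter, no prefix term or LDK libraries only (limma adjusted p = 0.0533, 0.0771 and 0.0596). Under crRNA 4 Pygm held 6.89, 5.43 and 5.19 FPKM, which overlapped the NT libraries (−0.24 ± 0.19, adjusted p = 0.444).

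Ly6g6c fell under crRNA 4 and was lower but not called under crRNA 7. NT libraries held 3.75, 2.91 and 2.93 FPKM and crRNA 4 libraries 1.03, 0.290 and 1.39 FPKM, from 1 to 5 reads (−1.48 ± 0.35, adjusted p = 0.0242). Under crRNA 7 replicate 1, the LDM library, stood apart at 3.79 FPKM beside 1.55 and 1.46 FPKM (−0.51 ± 0.35, adjusted p = 0.326). The crRNA 4 call was lost without NT replicate 1, 2 or 3 (adjusted p = 0.0656, 0.0810 and 0.0761) or crRNA 4 replicate 1 or 2 (0.0890 and 0.0691). It was also lost with no prefix term, no trend or LDK libraries only (limma adjusted p = 0.0905, 0.0515 and 0.0995).

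Tmem236 had lower values under each crRNA and missed the threshold: NT libraries held 3.84, 5.28 and 4.49 FPKM, crRNA 4 libraries 1.98, 4.03 and 3.20 FPKM (adjusted p = 0.202) and crRNA 7 libraries 2.98, 1.96 and 2.59 FPKM (−0.75 ± 0.25, adjusted p = 0.0621). The last group lay below all NT libraries. Gdf9 also lay below NT in all 3 crRNA 7 libraries (2.02, 2.32 and 2.34 FPKM against 2.80, 3.35 and 4.16), with an adjusted p of 0.154. Cdo1 had −0.83 ± 0.39 under crRNA 4 and −0.59 ± 0.39 under crRNA 7, and Vpreb3 −0.84 ± 0.34 under crRNA 7, none of them called. Colec11 held 4.50, 6.13 and 4.56 FPKM under NT crRNA, 6.17, 5.79 and 4.98 FPKM under crRNA 4 and 6.31, 3.10 and 4.38 FPKM under crRNA 7, and was not called (0.15 ± 0.22 and −0.16 ± 0.22). Its groups overlapped.

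Atp6v1e2 went the other way. It held 0.358, 2.55 and 1.87 FPKM under NT crRNA, where replicate 1 had a single read, 2.62, 3.33 and 3.97 FPKM under crRNA 4 and 0.905, 2.08 and 3.84 FPKM under crRNA 7. All crRNA 4 libraries lay above the NT libraries (1.04 ± 0.32, adjusted p = 0.0680), and crRNA 7 overlapped them (0.45 ± 0.32, adjusted p = 0.354). Neither was called. Spermatid markers, read beside this testis form, summed to 0.326 to 1.49 FPKM under NT crRNA of the line, 1.26 to 1.67 FPKM under crRNA 4 and 0 to 0.318 FPKM under crRNA 7. Their part in the result was not tested.

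For the mean of both tdTomato crRNAs against NT, Ly6g6c alone fell (−0.996 ± 0.30, adjusted p = 0.0430), where 11.3% of all genes tested fell. By an exact 2-sided permutation test of 6 against 3 libraries over 84 arrangements, Tmem236 had p = 0.0476 and Pygm p = 0.0595, and Ly6g6c had p = 0.107. These are unadjusted, 9 genes were compared, and the arrangements take no account of the name prefix or the replicate number. The call of Ly6g6c was lost without any of 7 single libraries (adjusted p = 0.0637 to 0.135): NT replicates 1, 2 and 3, crRNA 4 replicates 1 and 2, and crRNA 7 replicates 2 and 3. The direct contrast of crRNA 7 with crRNA 4, added after the data were seen, called 0 of the 9 genes by limma, where 0.0506% of all genes tested were called, and 5 had an unadjusted p under 0.05, among them Lgals3 (−1.50 ± 0.34, adjusted p = 0.191) and Ly6g6c (0.97 ± 0.35, adjusted p = 0.298). A difference between the 2 crRNAs in these genes is thus not shown.

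**Figure D3:**
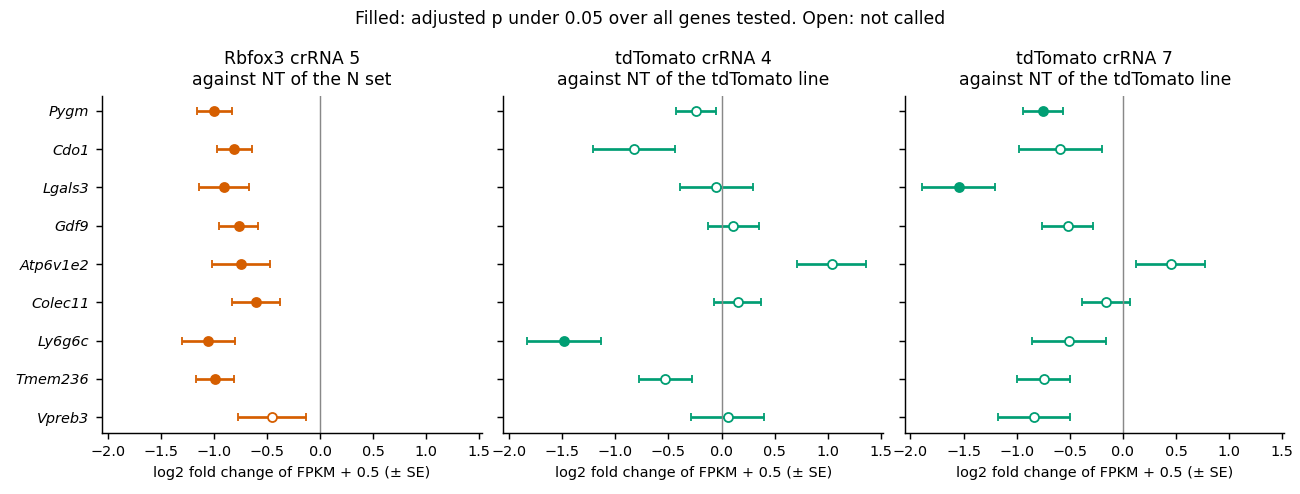
Log2 fold change of FPKM + 0.5 (horizontal axis, with bars of 1 SE) for each of the 9 genes (vertical axis) in the 3 comparisons whose libraries did not choose the genes; filled points have an adjusted p under 0.05 over all genes tested and open points do not. Under Rbfox3 crRNA 5 all points are negative, from −1.05 to −0.45, while under tdTomato crRNA 4 they run from −1.48 (Ly6g6c) to 1.04 (Atp6v1e2).

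The libraries of the 7 crRNAs in the WT set took part in the choice, so differences among them are a description. Map2 crRNA 1 gave the lowest group mean for 7 of the 9 genes, and Sik3 crRNA 8 for Cdo1 and Gdf9. The highest mean came from Rbfox3 crRNA 3 for 4 genes, from Map2 crRNA 3 for 3 and from Mapt crRNA 6 for 2. Group means under Map2 crRNA 1 were 3.88% (Ly6g6c) to 26.1% of NT, with a median of 14.7%. Under Rbfox3 crRNA 3 the median was 34.3% and under Map2 crRNA 3 it was 30.4%.

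Of the Map2 crRNAs, crRNA 3 had the higher group mean for all 9 genes. Vpreb3 held 1.06, 0.337 and 0.569 FPKM under crRNA 1 and 3.08, 2.17 and 4.97 FPKM under crRNA 3, a log2 difference of 1.74. Ly6g6c had 0.125, 0.0731 and 0.0617 FPKM under crRNA 1, which are 2, 1 and 1 reads, and 0.668, 0.635 and 0.844 FPKM under crRNA 3 (1.05). Both genes were clear of overlap. Colec11 held 1.25, 0.925 and 0.575 FPKM under crRNA 1 and 2.77, 1.88 and 2.34 FPKM under crRNA 3 (1.01), also without overlap.

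Atp6v1e2 held 0.119, 0.140 and 0.590 FPKM under Map2 crRNA 1 and 0.567, 1.21 and 0.941 FPKM under Map2 crRNA 3 (0.87), where a crRNA 1 library overlapped crRNA 3. Pygm held 1.23, 1.25 and 0.888 FPKM under crRNA 1 and 1.91, 1.44 and 2.14 FPKM under crRNA 3 (0.52). The target Map2 itself had 2.20, 2.12 and 2.11 FPKM under crRNA 1 and 1.11, 1.01 and 0.896 FPKM under crRNA 3. Between Sik3 crRNA 8 and Sik3 crRNA 1 the log2 differences of the 9 genes lay between −0.34 (Gdf9) and 0.22 (Vpreb3), and between Mapt crRNA 6 and Mapt crRNA 4 between −0.20 (Gdf9) and 0.47 (Atp6v1e2).

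The fits across all genes gave counts for these contrasts too, from which nothing is read, since the same libraries chose the genes. In the F test over the 7 crRNAs 6 of the 9 genes passed, where 43.5% of all genes tested did. Between the Map2 crRNAs 5 of the 9 were called, all with crRNA 3 higher, where 21.3% of all genes were, and for 6 all crRNA 3 libraries lay above all crRNA 1 libraries, as for 24.1% of all genes. Between the Sik3 crRNAs limma called 0 of the 9, with 0 at an unadjusted p under 0.05, where 2.61% of all genes were called, and both counts were 0 between the Mapt crRNAs as well, where 7.46% were.

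In the WT set, 4 close paralogs did not show the low levels of the listed genes under the 7 crRNAs. The listed genes were chosen as low in these libraries, so nothing is read from that difference. Pygb and Pygl, the brain and liver glycogen phosphorylases, had 31.8 ± 1.40 and 26.0 ± 0.781 FPKM (SD, n = 3) in the NT libraries of the WT set, above the 7.64 ± 0.337 FPKM of Pygm. Under the 7 crRNAs their group means were 103% to 126% and 108% to 131% of NT, whereas Pygm was at 21.5%. Atp6v1e1, the widely expressed form of subunit E, had 92.1 ± 6.70 FPKM under NT crRNA and 92.4% to 103% of that under the 7 crRNAs. Lgals1 (galectin-1) was among the abundant transcripts with 2466 ± 149 FPKM and stood at 79.9% to 97.3%. Under Rbfox3 crRNA 5 the 4 paralogs were at 89.8% (Pygb) to 102% (Lgals1) of NT of the N set, and Pygb fell by 0.15 ± 0.04 on the log2 scale (adjusted p = 0.0068). In the tdTomato line Pygb fell under crRNA 7 (−0.55 ± 0.13, adjusted p = 0.0211), where Pygm fell too. Lgals1 rose in that line under crRNA 4 (0.41 ± 0.07, adjusted p = 0.00615) and crRNA 7 (0.32 ± 0.07, adjusted p = 0.0133). Pygl and Atp6v1e1 were called under neither crRNA of the line, and Pygb was not called under crRNA 4. Colec10 and Bmp15, the closest relatives of Colec11 and Gdf9, were listed at 0 in all libraries, Colec12 was at most 0.0159 FPKM by group means of WT cells and Vpreb1 at most 0.245 FPKM.

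**Figure D4:**
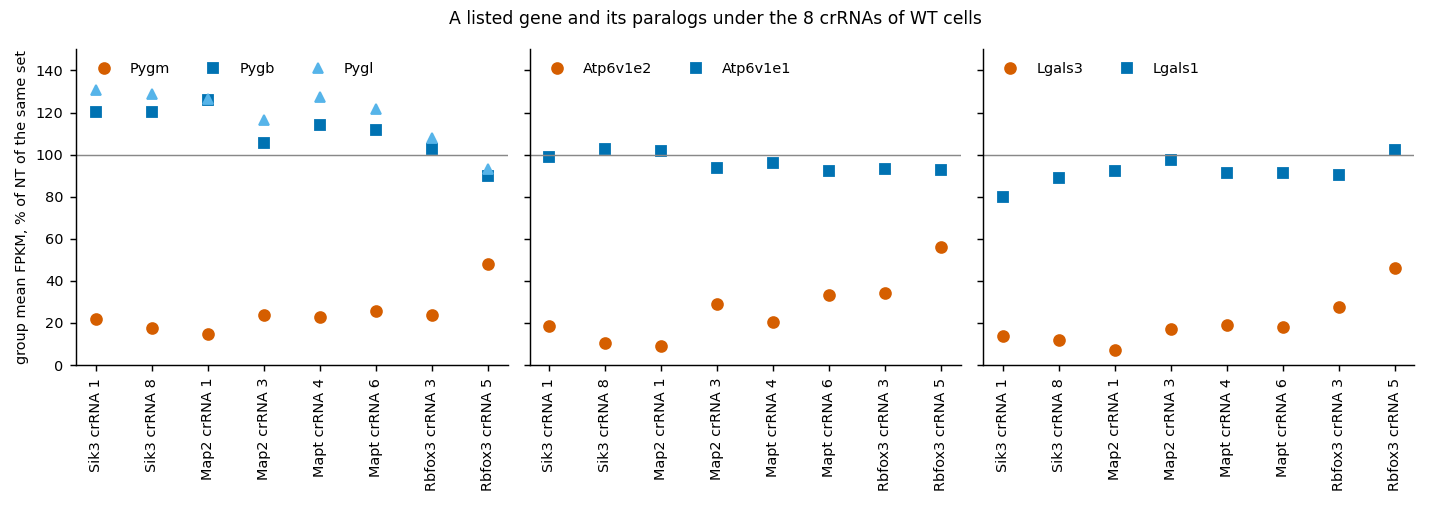
Group mean FPKM as a percentage of the NT mean of the same set (vertical axis, from 0) under the 8 crRNAs of WT cells (horizontal axis) for Pygm, Atp6v1e2 and Lgals3 (orange circles) and their paralogs (blue squares and triangles); points are means of 3 libraries and the line marks 100%. The paralogs lie between 79.9% and 131% in every group, and the orange points below them throughout. The 7 crRNAs of the WT set chose the orange genes as low, so nothing is read from their place in those groups.

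Under Rbfox3 crRNA 5, 13.1% of all genes tested fell and 12.6% rose, beside which the counts of the pathway lists are given. The genes chosen for this report are not counted in these lists. Of 19 tested genes of glycogen metabolism, 3 fell and 1 rose, with a median log2 fold change of −0.06 beside 0.00 over all genes. Epm2a, the glycogen phosphatase laforin, fell (−0.57 ± 0.18, adjusted p = 0.0248), and Stbd1, a glycogen-binding protein, rose (0.22 ± 0.05, adjusted p = 0.00427). Of 17 genes of cysteine and taurine metabolism other than Cdo1, 5 rose and 1 fell. Suox (sulfite oxidase) rose by 0.72 ± 0.11 (adjusted p = 2.29e-05) and Ado, a thiol dioxygenase, by 0.41 ± 0.05 (adjusted p = 3.54e-06). Cdo1, which is outside this count, fell. Of 19 V-ATPase subunit genes, 7 fell and 3 rose, with a median of −0.02, led by Atp6v1g2 (0.64 ± 0.16, adjusted p = 0.00373) and Atp6v1d (−0.30 ± 0.05, adjusted p = 0.000147).

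Among galectins and partners, 1 of 6 tested fell, Lgals3bp (−0.40 ± 0.09, adjusted p = 0.00177), and 1 rose, Lgalsl (0.18 ± 0.05, adjusted p = 0.0107). Of 10 genes of the oocyte factor pathway, Bmpr2, a receptor that binds Gdf9, alone rose (0.35 ± 0.09, adjusted p = 0.00437). In the Ly6 and uPAR family, 3 were tested, of which Plaur fell (−0.24 ± 0.06, adjusted p = 0.00487) and Cd59a rose (0.32 ± 0.11, adjusted p = 0.026). The collectin and pre-B-cell receptor lists had 1 tested gene each, not called, and the list around Tmem236 had none. For the mean of both tdTomato crRNAs, where 11.3% of all genes tested fell and 8.32% rose, 1 fell and 1 rose of 19 glycogen genes (Pygb, −0.38 ± 0.12, adjusted p = 0.0442, and Stbd1, 0.50 ± 0.10, adjusted p = 0.0104), and 1 fell and 4 rose of 19 V-ATPase genes. Slc6a6, the taurine transporter, fell (−0.56 ± 0.13, adjusted p = 0.0155) and Ethe1, a sulfur dioxygenase, rose (0.76 ± 0.21, adjusted p = 0.0319) among 17 cysteine and taurine genes.

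The cells carried markers of sympathetic neuroblasts, 425.7 to 557 FPKM summed over 10 genes in WT libraries. Of the tissues that the listed genes are known for, oocyte, liver and spermatid markers were low. Of 10 skeletal muscle markers, 7 had means under 0.5 FPKM in WT libraries, and Mylpf had the highest mean (12.9 FPKM). In WT libraries, all 8 oocyte markers and all 8 liver markers had means under 0.5 FPKM, with sums of at most 0.542 and 1.13 FPKM, and Bmp15, Oosp1, Figla and Apoc3 were listed at 0. All 7 spermatid markers were under 0.5 FPKM. They summed to 0.594 to 1.76 FPKM in NT libraries of the WT set, 0 to 1.16 FPKM under its 7 crRNAs, 1.14 to 1.37 FPKM in NT libraries of the N set and 0.609 to 1.83 FPKM under Rbfox3 crRNA 5.

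Skeletal muscle markers, read beside Pygm, summed to 12.7 to 14.9 FPKM in NT libraries of the WT set and 11.3 to 17.8 FPKM under the 7 crRNAs. In the N set they summed to 19.4 to 20.6 FPKM under NT crRNA and 17.2 to 20.4 FPKM under Rbfox3 crRNA 5. Of 2 muscle markers tested there, Acta1 fell (−0.87 ± 0.18, adjusted p = 0.00117) and 1 was not called, where 13.1% of all genes tested fell. In the tdTomato line the sums were higher, at 31.4 to 74.5 FPKM under NT crRNA, 41.74 to 55.5 FPKM under crRNA 4 and 46.0 to 90.2 FPKM under crRNA 7. Acta1 had the highest mean of that line (36.4 FPKM), and 5 of the 10 markers had means under 0.5 FPKM.

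Macrophage markers, read beside Lgals3, summed to 2.01 to 7.32 FPKM in NT libraries of the WT set and 0.806 to 10.3 FPKM under the 7 crRNAs, with Lyz2 the highest (mean 3.47 FPKM over WT libraries). In the N set they summed to 7.63 to 12.5 FPKM under NT crRNA and 8.21 to 14.4 FPKM under Rbfox3 crRNA 5, and in the tdTomato line to 2.65 to 6.51, 5.30 to 11.4 and 5.64 to 6.85 FPKM under NT crRNA, crRNA 4 and crRNA 7. B-cell markers, read beside Vpreb3, summed to 1.60 to 2.12 FPKM in NT libraries of the WT set and 1.32 to 2.33 FPKM under its 7 crRNAs. They summed to 2.66 to 3.31 FPKM in NT libraries of the N set and 2.67 to 3.25 FPKM under Rbfox3 crRNA 5. In the tdTomato line they summed to 1.80 to 3.14, 1.39 to 4.97 and 1.16 to 2.13 FPKM in the same order, with Cd79b, Ms4a1, Igll1 and Vpreb1 among those at 0. The part of these markers in the results was not tested.

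The genes are spread over the genome, with Atp6v1e2 and Ly6g6c on the same chromosome. In GRCm38 they lie at chr19:6384399-6398459 (Pygm), chr14:47367751-47386160 (Lgals3), chr11:53431023-53437904 (Gdf9), chr17:86944109-86947897 (Atp6v1e2), chr12:28594173-28623377 (Colec11), chr17:35065388-35070050 (Ly6g6c), chr2:14174523-14221993 (Tmem236) and chr10:75943057-75949657 (Vpreb3), with Cdo1 on chromosome 18. Of the 18 genes next to them, 10 were expressed enough to be tested in WT cells, and 3 fell, 3 rose and 4 were not called under Rbfox3 crRNA 5, where 13.1% and 12.6% of all genes tested fell and rose, with a median log2 fold change of −0.06. Sf1, 6369 bp from Pygm, fell by 0.18 ± 0.04 (adjusted p = 0.00233), and Rhoq, 15185 bp from Atp6v1e2, fell by 0.28 ± 0.06 (adjusted p = 0.000726), both less than their listed neighbours. Rasgrp2, 881 bp from Pygm on its other side, was too low to be tested. Its group means were 1.64 FPKM in NT of the N set and 0.953 FPKM under Rbfox3 crRNA 5. They were 0.796 FPKM in NT of the WT set and 0.374 to 0.586 FPKM under its 7 crRNAs. Gm867, 2385 bp from Vpreb3 and also untested in WT cells, had 0.828 FPKM in NT of the N set and 1.02 FPKM under Rbfox3 crRNA 5. Uqcrq begins 192 bp from Gdf9 and had 0.18 ± 0.08 (adjusted p = 0.0938), where Gdf9 fell. Rps7, beside Colec11, rose (0.39 ± 0.10, adjusted p = 0.00726). Ly6g6c shares 22 bp of exon with Mpig6b on the opposite strand.

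The transcripts are short. The longest annotated transcript of the 9 genes had a median length of 1595 nt, beside 3278 nt over the 11344 tested genes, and 8 of the 9 were below that median, from Vpreb3 (729 nt) to Pygm (2874 nt), with Tmem236 (3659 nt) above it. GC content had a median of 52.7% beside 49.8%, from 40.8% (Tmem236) to 55.04% (Lgals3). In the NT libraries of the N set all 9 were below the median level of 11.98 FPKM, from 3.57 FPKM (Lgals3) to 11.8 FPKM (Pygm).

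Promoters of 7 of the 9 genes matched the RefSeq promoter table (build GRCm38.p6), in which Gdf9 and Cdo1 were not matched. The genes were chosen on a shared contrast, so their common direction there is no finding. The 250 bases before the start site of 4 of these genes are shown 5′ to 3′ along the gene's strand. The start is as RefSeq places it, and matches to 8 searched motifs are in capitals.
Pygm, chr19:6384158-6384407, plus strand: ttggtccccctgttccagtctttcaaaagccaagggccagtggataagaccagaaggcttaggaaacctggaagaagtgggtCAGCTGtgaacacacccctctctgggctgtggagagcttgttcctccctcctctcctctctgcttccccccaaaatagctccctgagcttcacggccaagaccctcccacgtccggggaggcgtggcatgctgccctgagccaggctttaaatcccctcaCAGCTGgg
Ly6g6c, chr17:35067075-35067324, plus strand: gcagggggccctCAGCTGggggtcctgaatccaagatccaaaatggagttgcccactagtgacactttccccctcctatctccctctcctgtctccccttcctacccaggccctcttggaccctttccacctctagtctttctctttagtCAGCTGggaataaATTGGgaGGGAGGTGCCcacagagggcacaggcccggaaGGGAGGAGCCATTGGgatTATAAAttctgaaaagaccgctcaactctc
Colec11, chr12:28623331-28623580, minus strand: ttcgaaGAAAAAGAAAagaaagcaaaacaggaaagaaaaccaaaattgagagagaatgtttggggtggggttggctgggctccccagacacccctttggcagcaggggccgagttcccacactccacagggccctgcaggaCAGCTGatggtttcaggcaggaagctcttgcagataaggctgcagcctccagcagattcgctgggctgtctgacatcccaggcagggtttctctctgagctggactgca
Lgals3, chr14:47373610-47373859, plus strand: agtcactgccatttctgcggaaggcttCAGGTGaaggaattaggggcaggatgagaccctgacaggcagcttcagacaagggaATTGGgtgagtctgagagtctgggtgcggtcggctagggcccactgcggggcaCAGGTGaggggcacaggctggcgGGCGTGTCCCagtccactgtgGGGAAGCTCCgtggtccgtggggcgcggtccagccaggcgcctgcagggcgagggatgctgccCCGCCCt
The 8 motifs were searched on either strand, and where capitals run on, matches overlap or adjoin. The E-box, CANNTG, was present in all 7 promoters and in 66.0% of 27025 promoters of the table. Pygm had copies of it at −168 and −8 from its start. The TATA box, searched as TATAAA, was present at −30 in Ly6g6c only (13.0% of all promoters). The GC box, GGGCGG, was in Lgals3 only (32.9% of all). The letters CCAAT were in Lgals3, Ly6g6c and Tmem236 (34.5%). The NF-kB site was in Lgals3 and Ly6g6c (17.3%) and the interferon-stimulated response element in Colec11 (3.04%). The AP-1 motif, TGANTCA, was in 0 of 7 windows (6.87% of all), and so was the cAMP response element, TGACGTCA (1.62%). These are matches of letters, and no binding was measured.

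The 9 genes followed each other closely over the 30 WT libraries, as their choice on a shared contrast provides, with Pearson r from 0.814 to 0.958 (median 0.9002) over 36 pairs. Over the 21 crRNA libraries alone r ran from −0.0857 to 0.715 with a median of 0.452, and over the 9 libraries of the tdTomato line from −0.708 to 0.858 with a median of 0.303. These libraries share depth and preparation, and the values are a description. The genes most like the mean standard score of the 9 over the 30 WT libraries were Ddx39b (r = 0.982), Gtf2h1 (0.977), Rrp7a (0.976), Neurl3 (0.975) and Agpat1 (0.974). Ddx39b, an RNA helicase of mRNA export, had group means of 195.5 FPKM in NT of the WT set, 128 FPKM over the 21 crRNA libraries, 255.5 FPKM in NT of the N set and 211 FPKM under Rbfox3 crRNA 5. Its fold between NT and crRNA libraries was thus smaller than that of the listed genes, and unlike most of them it stood higher under Rbfox3 crRNA 5 than under NT crRNA of the WT set. Ythdc1, a reader of methylated adenosine in RNA, was most like Tmem236 (r = 0.974), and Gtf2h1, a subunit of the transcription factor TFIIH, most like both Pygm (0.971) and Cdo1 (0.963). The most similar genes of the others were Ddx39 for Lgals3 (0.957), Ddx39b for Gdf9 (0.962), Neurl3 for Atp6v1e2 (0.946), Abcf1 for Colec11 (0.958), H13 for Ly6g6c (0.959) and Eif6 for Vpreb3 (0.907).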

How the data were processed

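Poly(A) RNA of 39 N2a libraries was sequenced. The deposited FPKM values, 1 table for WT cells and 1 for the tdTomato line, were made by the authors; Trim Galore, Subread, featureCounts and mm10 are named in the submitters' processing notes, with versions not given in the sources used here. DESeq2 was the study's test, but FPKM are not counts, so limma 3.58.1 in R 4.3.3 was fitted to log2(FPKM + 0.5) of genes with a mean of at least 1 FPKM, with group and library-name prefix as terms, trend and Benjamini-Hochberg adjustment. All 9 genes passed that filter in both tables, and would have been kept without it. In WT cells Lgals3, Gdf9, Atp6v1e2, Ly6g6c and Tmem236 had means of 0.416 to 0.898 FPKM over the 21 crRNA libraries. They passed through the NT and Rbfox3 crRNA 5 libraries, where they were higher. Depth was recovered from the steps of low values: 94.6% to 96.8% of the small-RNA values per library came out as whole reads within 0.001, and totals ran from 2199738 to 16874763 reads. The script was tested on simulated data. Tables were drawn with Python 3.11.15. There were 0 unused columns.

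The members and gene lists were chosen with earlier results of these data known. Named genes are the 9 members, the most changed called genes of each list, close paralogs, adjacent genes and the genes most correlated with the members. No library was left out. Pseudocount, filter, scaling, prefix term, trend, replicate block and single libraries were varied.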

Additional observations from a re-analysis of the deposited data

Results flagged for a closer look

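Atp6v1e2 had opposite directions in different cells. Under tdTomato crRNA 4 all 3 libraries lay above the 3 NT libraries of the tdTomato line, with a log2 fold change of 1.04 that was not called (limma adjusted p = 0.068), while under Rbfox3 crRNA 5 all 3 lay below the NT libraries of the N set (−0.74, adjusted p = 0.0449). The values come from separate tables and the difference between them was not tested. In the tdTomato line the gene rested on 1 to 15 reads per library.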

How the results depend on the processing

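Of 1206 values of single genes under the alternatives, 1097 kept their direction and their side of the threshold, 58 lost a call, 15 gained one and 36 changed sign, none of which was called before or after. Pygm, Cdo1, Lgals3, Gdf9, Ly6g6c and Tmem236 fell under Rbfox3 crRNA 5 under all 16 alternatives, whereas Atp6v1e2 passed under 8 and Colec11 under 6. These alternatives include a fit of the compared groups only. The count called under tdTomato crRNA 4 went from 1 to 0 with no prefix term, with no trend and with LDK libraries only. Under crRNA 7 it went from 2 to 1 with no filter and with a mean of at least 5 FPKM, and to 0 with no prefix term. For the mean of both crRNAs it went from 1 to 0 with a pseudocount of 0.1, no filter, a mean of at least 5 FPKM, no prefix term, median-ratio scaling, no trend or LDK libraries only, and to 4 with equal library totals. The cause was not tested. The median fold change that chose the genes was −2.13 with a pseudocount of 0.1, −1.32 with a pseudocount of 1 and −1.91 against all 6 NT libraries, beside −1.58.

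Leaving out single libraries gave 6 to 8 called genes under Rbfox3 crRNA 5, 0 to 1 under tdTomato crRNA 4, 0 to 3 under crRNA 7, 0 to 2 for their mean, 4 to 5 between the Map2 crRNAs and 3 to 7 in the F test. With a replicate block the counts were 6 under Rbfox3 crRNA 5 (Atp6v1e2 adjusted p = 0.0559, Colec11 0.0541 by limma), 1, 2 and 1 in the tdTomato line, 0 for Sik3, 5 for Map2, 0 for Mapt and 6 in the F test. Same-numbered libraries correlated above 0.1 in 31 of 84 pairs of the WT set, 0 of 3 of the N set and 6 of 9 of the tdTomato line. As not every same-numbered pair was above 0.1, the numbers were not taken as pairing. In the tdTomato line 9 of 9 libraries correlated best with their own number. There the number follows the labels in part, since replicate 1 of every group has the prefix LDM and replicates 2 and 3 have LDK. Depth limits the tdTomato line, with at most 107 reads for a listed gene.

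The changes of sign were in 16 gene values, nearly all on leaving out 1 library. The log2 fold changes then ranged under tdTomato crRNA 4 from −0.065 to 0.34 for Colec11, −0.34 to 0.33 for Vpreb3, −0.42 to 0.15 for Lgals3, −0.13 to 0.34 for Gdf9, under crRNA 7 from −0.40 to 0.044 for Colec11, for their mean from −0.22 to 0.18 for Colec11 and between them from −0.20 to 0.71 for Cdo1. They ranged between the Sik3 crRNAs from −0.25 to 0.059 for Lgals3, −0.32 to 0.42 for Colec11, −0.26 to 0.19 for Ly6g6c, −0.15 to 0.15 for Tmem236, −0.077 to 0.63 for Vpreb3, and between the Mapt crRNAs from −0.056 to 0.26 for Pygm, −0.27 to 0.088 for Lgals3, −0.16 to 0.19 for Ly6g6c, −0.068 to 0.14 for Vpreb3. With equal library totals Gdf9 and Vpreb3 had −0.014 and −0.072 under tdTomato crRNA 4, where Vpreb3 had −0.32 with LDK libraries only, and with median-ratio scaling Colec11 had 0.081 for the mean. The cause was not tested.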
